A study of Rattus norvegicus with 88 samples.

Results

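Expression of 6 genes of glutamatergic neurons was examined in rat infralimbic cortex (IL), which lies in the medial prefrontal cortex, by RNA-Seq of polyadenylated RNA. The genes were Slc17a7 (ENSRNOG00000020650), Camk2a (ENSRNOG00000018712), Grin1 (ENSRNOG00000011726), Grin2a (ENSRNOG00000033942), Grin2b (ENSRNOG00000008766) and Gria1 (ENSRNOG00000045816). They were chosen by gene identifier, and all 6 were present among the 17252 genes of the deposited table. Tissue came from naïve, group-housed Heterogeneous Stock rats, an outbred population bred from inbred founder strains, and each library was made from the bilateral IL of 1 rat. The submitters had marked 7 of 88 libraries as removed, 3 of them because the genotype did not match, and those were left out here, so that 40 females and 41 males remained. The labels placed these rats in rat batch 2 (16 rats), 3 (25), 4 (24), 5 (1) and 6 (15), and they gave no age.

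Glutamate is the main excitatory transmitter of the cortex. It is loaded into synaptic vesicles by vesicular transporters, of which the product of Slc17a7, VGLUT1, is the one that most cortical pyramidal neurons use. At the receiving synapse it opens AMPA receptors, which carry the fast current and of which Gria1 encodes a subunit, and NMDA receptors, which admit calcium. An NMDA receptor needs the subunit encoded by Grin1 and is completed by further subunits, in the cortex chiefly those encoded by Grin2a and Grin2b, and the balance between these shifts from Grin2b towards Grin2a as the brain matures. Calcium entry activates the kinase whose alpha subunit is encoded by Camk2a, one of the most abundant proteins of the excitatory synapse.

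The 250 bases before the annotated start of the transporter gene and of the obligate receptor subunit gene are shown because their levels went together in part of the rats, as described below. Both are from RefSeq on build GRCr8, read 5′ to 3′ on the strand of the gene, with GC boxes (GGGCGG or CCGCCC) and short cAMP response element sites (TGACG or CGTCA) in capitals.
Slc17a7, chr1:104785955-104786204, plus strand: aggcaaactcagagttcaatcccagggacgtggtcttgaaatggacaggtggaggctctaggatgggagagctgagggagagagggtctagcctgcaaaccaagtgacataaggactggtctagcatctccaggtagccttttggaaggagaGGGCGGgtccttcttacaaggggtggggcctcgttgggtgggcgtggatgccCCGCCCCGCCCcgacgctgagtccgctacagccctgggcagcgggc
Grin1, chr3:28528755-28529004, minus strand: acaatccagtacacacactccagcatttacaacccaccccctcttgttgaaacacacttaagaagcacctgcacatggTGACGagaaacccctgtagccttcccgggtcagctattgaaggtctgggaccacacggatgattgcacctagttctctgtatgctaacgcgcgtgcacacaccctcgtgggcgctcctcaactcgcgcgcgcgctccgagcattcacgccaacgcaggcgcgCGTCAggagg
The Slc17a7 window held 3 GC boxes, 2 of which share a base, and no cAMP response element site, with a GC content of 61.2%. The Grin1 window held 2 cAMP response element sites and no GC box, with a GC content of 57.6%. Of 33465 windows of the same length in the reference, 30.5% held a GC box and 18.2% a cAMP response element site, and the median GC content was 51.2%. These matches describe letters and were not tested against expression.

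Values are given on the authors' scale, the log2 of 1 plus a read count adjusted by the upper quartile, on which a difference of 1 is a doubling. They are not divided by gene length, so each gene is compared across rats and not with the other genes. The estimated depth averaged 17.9 M reads ± 3.77 (SD, n = 81), and it lay between 12.2 and 31.8 M in all libraries but male 14, which had 5.96 M. The table lists its columns in 3 stretches of alphabetical order, called column runs here, and no label says what they are. Run 1 held 22 rats, of which 15 were of batch 2 and 7 of batch 3. Run 2 held 16, with 15 of batch 3 and 1 of batch 2. Run 3 held 43, namely 3 rats of batch 3 and all rats of batches 4, 5 and 6. Of 38 marker genes looked up, 7 could be matched to an identifier. The matched markers are of cell types and not of IL, so they cannot check which region was dissected. Besides Slc17a7 and Camk2a, the cortical excitatory marker Neurod6 was expressed in every rat (10.33 to 11.30). The markers of GABA neurons Slc32a1 (9.56 to 10.65) and Vip (9.52 to 10.42), of astrocytes Aldh1l1 (7.37 to 8.36) and of microglia P2ry12 (6.56 to 8.41) were also above 0 in every rat. No marker of oligodendrocytes, endothelium or striatum could be matched. In bulk tissue, fewer cells of a type and less RNA per cell cannot be told apart.

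The transporter gene was the steadiest of the 6 from rat to rat, and the NMDA subunit genes Grin2a and Grin2b varied most. Slc17a7 averaged 15.05 ± 0.11 (SD, n = 81), with a lowest value of 14.80 in female 35, a median of 15.07 and a highest of 15.28 in female 33, a 1.39-fold range. Once rat batch and sex were taken into account, its SD was 0.0949. Among 13048 expressed genes, taken as those whose mean log2 value reached 5, only 4.58% had an SD as small as that or smaller, and the median SD was 0.188. Those genes were not matched to Slc17a7 for level, and genes with fewer reads carry more counting error. Slc17a7 had a median of 33150 reads per library, for which counting alone gives an SD of 0.00799.

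Grin2a, whose product replaces that of Grin2b in many mature receptors, averaged 8.83 ± 0.69. It ran from 6.67 in male 38 and 7.03 in female 28 through a median of 8.94 to 10.23 in female 29, an 11.9-fold range. Its SD after rat batch and sex was 0.485, and 95.7% of the expressed genes had an SD no larger. Grin2b averaged 8.82 ± 0.39, with a lowest value of 7.97 in female 28, a median of 8.81 and a highest of 10.09 in male 32. Its SD after batch and sex of 0.341 was at the 85.5 percentile. These 2 genes also had the fewest reads, with medians of 475 and 440 per library, for which counting alone gives an SD of 0.0752 and 0.0711. Counting error was therefore well below the spread between rats for both.

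Camk2a, Grin1 and Gria1 had spreads near or below that of the median gene. Camk2a averaged 13.35 ± 0.18, with a lowest value of 12.61 in male 38, next to 12.95 in female 28, a median of 13.36 and a highest of 13.83 in female 29. Grin1 averaged 13.19 ± 0.18 and ran from 12.80 in female 32 through a median of 13.19 to 13.67 in female 35. Gria1 averaged 11.74 ± 0.21, with a lowest value of 10.82 in male 38, next to 11.37 in male 36, a median of 11.76 and a highest of 12.17 in female 29. After batch and sex their SDs were 0.170, 0.141 and 0.150, at the 41.5, 25.8 and 30.6 percentiles.

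The rat at an extreme was often the same one. Male 38, a rat of batch 2 in run 1, was lowest for Camk2a, Grin2a and Gria1, while its Grin1 value of 13.60 was the second highest and its Slc17a7 value of 15.22 stood at rank 76 of 81. Its Grin2b value of 8.80 was near the median. Female 29, of batch 4 in run 3, was highest for Camk2a, Grin2a and Gria1 and second highest for Grin2b (10.06), with Grin1 at 13.21 and Slc17a7 at 14.94. Female 35, of batch 3 in run 1, combined the lowest Slc17a7 with the highest Grin1. The genes thus did not rise and fall as 1 block, and the called pairs among Camk2a, Grin2a, Grin2b and Gria1 are also given without male 38.

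**Figure D1:**
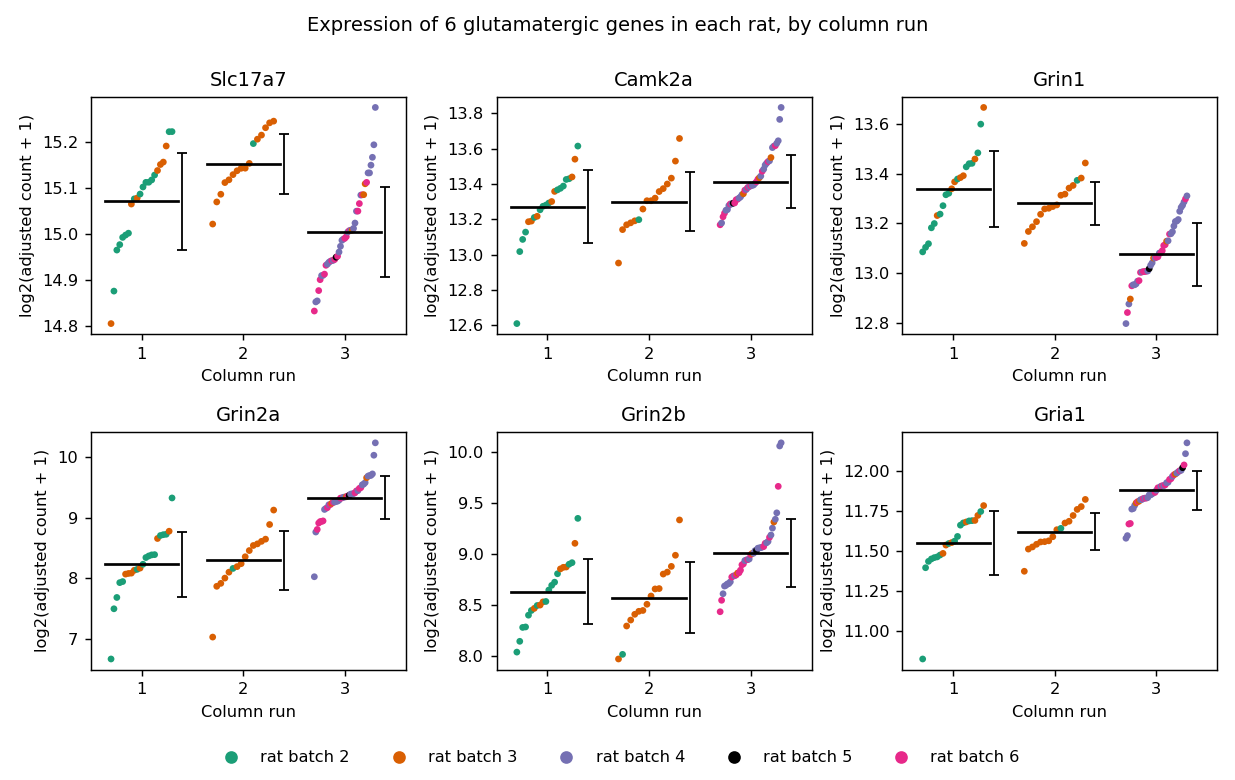
Expression of each gene in each of 81 rats, as log2 of the adjusted count plus 1 (vertical axis, scaled per gene), by column run (22, 16 and 43 rats) and coloured by rat batch. Within a run, points are ordered by value. Horizontal lines are means and bars to their right are SDs. Grin2a lies mostly above 8.8 in run 3 and below it in runs 1 and 2, and Grin1 lies lower in run 3.

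The sexes were compared in all 81 rats with rat batch as a covariate. None of the 6 genes differed between males and females at an adjusted p under 0.05 (limma, Benjamini-Hochberg over 17252 genes), against 34 genes or 0.197% of all those tested. At an unadjusted p under 0.05 there were 1339 genes, with Slc17a7 as the only one of the 6. Slc17a7 was 0.05 higher in males (95% confidence interval 0.0038 to 0.0935, adjusted p = 0.581), with 15.03 ± 0.12 in 40 females and 15.08 ± 0.10 in 41 males. Male minus female differences were 0.05 for Camk2a (interval -0.030 to 0.122), 0.02 for Grin1 (-0.045 to 0.082), 0.02 for Grin2a (-0.198 to 0.233), 0.08 for Grin2b (-0.067 to 0.237) and -0.04 for Gria1 (-0.108 to 0.028).

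Rat batch went with the level of every gene examined. All 6 were called in the F test over batches 2, 3, 4 and 6 with sex as a covariate (80 rats, as batch 5 held 1 rat), where 57.6% of all genes were called, so the count of 6 stands beside a background of more than 1 gene in 2. Grin2a had the lowest adjusted p, 1.45e-11, followed by Gria1 (4.92e-10), Grin1 (3.10e-07), Grin2b (3.90e-05), Slc17a7 (0.000164) and Camk2a (0.00462). Taken as the mean of batches 4 and 6 minus that of batches 2 and 3, Grin2a, Grin2b, Gria1 and Camk2a were higher and Grin1 was lower, although single pairs of batches did not all pass. Slc17a7 was lower by the same measure on the deposited scale, but not after quantile normalization, where the difference was 0.01 and was not called (adjusted p = 0.876).

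For Grin2a the order was batch 2 (8.20 ± 0.60, n = 16), batch 3 (8.43 ± 0.56, n = 25), batch 6 (9.20 ± 0.23, n = 15) and batch 4 (9.39 ± 0.42, n = 24), and the 1 rat of batch 5 had 9.37. Neighbours at either end did not differ beyond their spread: batch 3 was 0.23 above batch 2 (SE 0.15, adjusted p = 0.463) and batch 6 was 0.19 below batch 4 (SE 0.15, adjusted p = 0.562). The gap lay in the middle, where batch 6 was 0.77 above batch 3 (SE 0.15, adjusted p = 2.00e-05). Individual rats still overlapped, since batch 3 reached 9.66 and batch 4 went down to 8.03.

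Gria1, the AMPA receptor subunit gene, was split in the same place, with 11.52 ± 0.21 in batch 2, 11.65 ± 0.14 in batch 3, 11.87 ± 0.13 in batch 4 and 11.88 ± 0.11 in batch 6. Batch 6 exceeded batch 3 by 0.23 (SE 0.05, adjusted p = 5.50e-05) and batch 4 by 0.01 (SE 0.05, adjusted p = 0.972). Grin2b had 8.54 ± 0.36, 8.70 ± 0.32, 8.91 ± 0.28 and 9.07 ± 0.38 in batches 2, 3, 6 and 4, and here batch 6 did not differ from batch 3 (0.21, SE 0.11, adjusted p = 0.0938) while batch 4 did (0.37, SE 0.095, adjusted p = 0.000831).

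Grin1 ran the other way, from 13.31 ± 0.15 in batch 2 and 13.28 ± 0.15 in batch 3 to 13.10 ± 0.14 in batch 4 and 13.05 ± 0.10 in batch 6. It was 0.23 lower in batch 6 than in batch 3 (SE 0.046, adjusted p = 1.47e-05). Slc17a7 had 15.07 ± 0.10, 15.12 ± 0.09, 15.02 ± 0.11 and 14.97 ± 0.08 in batches 2, 3, 4 and 6, and its call was lost without batch 3 (adjusted p = 0.143). Camk2a had 13.25 ± 0.22, 13.33 ± 0.16, 13.45 ± 0.17 and 13.36 ± 0.12 in the same order. Batch 4 passed against batch 2 (0.21, SE 0.055, adjusted p = 0.00112) and batch 3 (0.12, SE 0.048, adjusted p = 0.0287), and batch 6 passed against neither (adjusted p = 0.0869 and 0.634). Its call was lost without batch 4 (adjusted p = 0.109).

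Batch and column run overlapped for most rats, so each was tested with the other in the fit. Of batches 2 and 3, only 3 rats of batch 3 shared a run, run 3, with batches 4 and 6. Given the run, batches 4 and 6 are compared with 2 and 3 through those 3 rats alone. Given batch, run 3 is compared with the other runs through the same 3 rats. Batch and run cannot otherwise be told apart there. Given the column run, 0 of the 6 genes were called for rat batch (smallest adjusted p = 0.465), against 476 genes or 2.76% of all, and none of the 6 had an unadjusted p under 0.05, against 2820 genes overall. Within run 3, batches 4 and 6 differed in 0 of the 6 (39 rats, smallest adjusted p = 0.351), against 3.46% of all genes. Within run 1, batches 2 and 3 differed in 0 of the 6 (22 rats), against 0% of all genes, where 784 genes had an unadjusted p under 0.05 and none of the 6 was among them.

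Given rat batch, the column run was called for Grin2a (adjusted p = 0.00600) and Grin1 (adjusted p = 0.00638), 2 of the 6 against 16.8% of all genes. Grin2a had 8.23 ± 0.53 in run 1 (6.67 to 9.33), 8.30 ± 0.48 in run 2 (7.03 to 9.13) and 9.33 ± 0.35 in run 3 (8.03 to 10.23). Run 3 was the high group and its range overlapped both others, its lowest rat being male 14, the shallowest library. With batch and sex in the fit, run 3 was 1.13 above run 1 (SE 0.29, adjusted p = 0.0180) and 1.12 above run 2 (SE 0.27, adjusted p = 0.00563), while run 2 was 0.01 above run 1 (95% confidence interval -0.346 to 0.370). The differences of run 3 in this fit, here and for the other genes, rest on the 3 rats of batch 3 in that run.

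Grin1 had 13.34 ± 0.15 in run 1 (13.09 to 13.67), 13.28 ± 0.09 in run 2 (13.12 to 13.44) and 13.08 ± 0.13 in run 3 (12.80 to 13.31). It was 0.36 lower in run 3 than in run 1 (SE 0.087, adjusted p = 0.00813) and 0.27 lower than in run 2 (SE 0.080, adjusted p = 0.0276), and the interval for run 2 minus run 1 was -0.205 to 0.0072. The obligate subunit gene and Grin2a were therefore on opposite sides in run 3. In the same rat, the Grin2a value minus the Grin1 value averaged -5.11 ± 0.61 in run 1, -4.99 ± 0.46 in run 2 and -3.75 ± 0.39 in run 3. The Grin2a value minus the Grin2b value averaged -0.40 ± 0.50, -0.27 ± 0.36 and 0.32 ± 0.27. As gene length adds a constant to such a difference, its change between runs can be read and its level cannot.

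For the other 4 genes the run term was not called. Gria1 was 0.26 higher in run 3 than in run 1 (SE 0.097, 95% confidence interval 0.065 to 0.450), and its F test had an adjusted p of 0.0877, which became 0.0274 without male 38 and 0.0433 after quantile normalization. The run 3 minus run 1 interval was -0.205 to 0.674 for Grin2b, -0.118 to 0.335 for Camk2a and -0.152 to 0.107 for Slc17a7. A difference as large as that of Grin1 thus lay within the interval of Grin2b and outside those of Camk2a and Slc17a7. Run 3 minus run 2 was 0.44 for Grin2b (interval 0.031 to 0.847, adjusted p = 0.1725). For Gria1 it was 0.25 (0.070 to 0.428, adjusted p = 0.0677). Neither was called, and the intervals of Camk2a and Slc17a7 included 0.

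**Figure D2:**
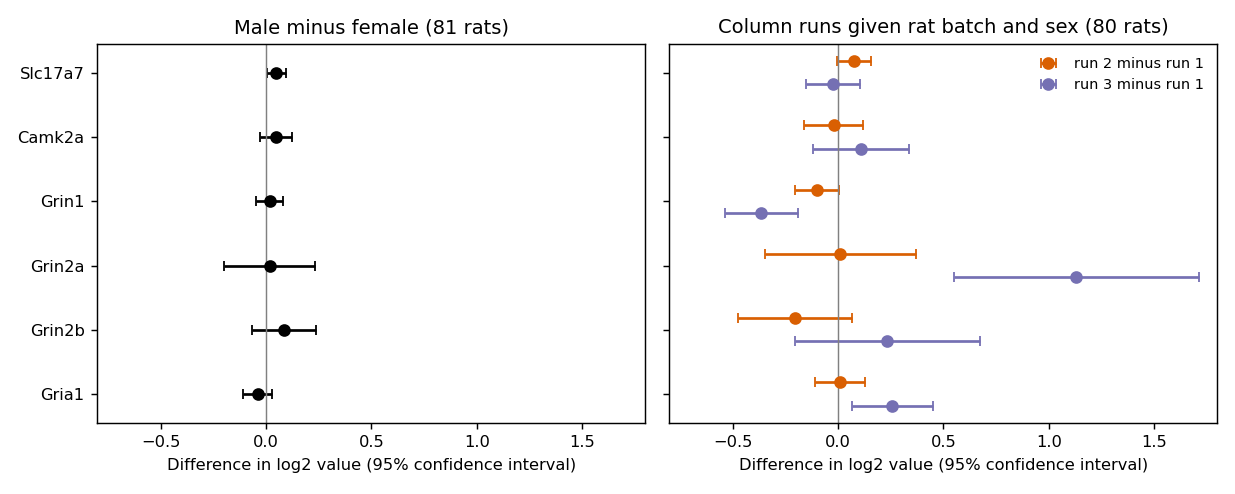
Left, male minus female difference of each gene in 81 rats with rat batch in the fit. Right, run 2 minus run 1 (orange) and run 3 minus run 1 (purple) in 80 rats with rat batch and sex in the fit. Points are differences in log2 value and bars are 95% confidence intervals. All intervals for sex except that of Slc17a7 include 0, and the run 3 points of Grin2a and Grin1 lie at 1.13 and -0.36. The run 3 points rest on the 3 rats of batch 3 in run 3.

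Batch 3 is the one batch with rats in all 3 runs, and its 25 rats give the run difference within 1 batch. The 3 rats of run 3 had Grin2a values of 9.24, 9.35 and 9.66. The 7 rats of run 1 lay between 8.07 and 8.78 and the 15 of run 2 between 7.03 and 9.13. Run 3 thus did not overlap the other runs. The share of all genes whose 3 rats of run 3 separate in this way was not computed. Grin1 was at 12.90, 13.06 and 13.13 in run 3, at 13.23 to 13.67 in run 1 and at 13.12 to 13.44 in run 2, where the ranges of runs 2 and 3 met. Both genes were called (adjusted p = 0.0107 for Grin2a and 0.00417 for Grin1), 2 of the 6 against 16.9% of all genes. Gria1 had an adjusted p of 0.0532 in this F test. Its run 3 minus run 2 difference alone was 0.24 and was called (SE 0.073, adjusted p = 0.0352). In these rats run 3 was 1.05 above run 1 for Grin2a (SE 0.27) and fell by 0.37 for Grin1 (SE 0.074). These values rest on 3 rats of run 3. The run 3 differences over 80 rats given above rest on the same 3 rats, so the 2 sets of values are not independent.

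Depth and 2 markers of other cells also went with the run. Mean depth was 17.5, 15.2 and 19.1 M reads in runs 1, 2 and 3, and with depth in the fit Grin2a and Grin1 were still called (adjusted p = 0.0122 and 0.00815). Slc32a1, the vesicular transporter of GABA neurons, had 10.40 ± 0.13 in run 1 (10.18 to 10.65), 10.33 ± 0.12 in run 2 (10.17 to 10.55) and 9.95 ± 0.16 in run 3 (9.56 to 10.29), and P2ry12, a receptor of microglia, had 7.32 ± 0.32 (6.56 to 7.96), 7.49 ± 0.31 (7.08 to 8.06) and 7.72 ± 0.35 (7.14 to 8.41). Both were called for the run given batch (adjusted p = 0.0243 and 0.0256). Neurod6 (10.97, 10.91 and 10.84), Vip (10.05, 10.09 and 10.01) and Aldh1l1 (7.98, 8.01 and 7.87) were not. No matched marker was at 0 in any run, and the part of the other cells in the differences of Grin2a and Grin1 was not tested.

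Of 45 further genes of the glutamate synapse, 11 could be matched to an identifier, through lists that the study made from these or related samples, most of them genes with a local expression QTL in IL, so they are not an independent sample of the synapse. None of the 11 was called for sex. For rat batch 6 of 11 were called in the F test, next to 57.6% of all genes, and 0 of 11 once the run was in the fit (smallest adjusted p = 0.270), next to 2.76%. By the mean of batches 4 and 6 minus that of 2 and 3, positive differences were found for Dlg2, a scaffold that holds NMDA receptors at the synapse (adjusted p = 5.05e-08), and the metabotropic receptor genes Grm3 (0.000602) and Grm6 (0.0246). Negative ones were found for Cnih2, an AMPA receptor auxiliary subunit gene (3.06e-10), Grm4 (0.000311) and the kainate receptor subunit gene Grik5 (0.0296). Single pairs did not all pass. Grm6 in batch 4 passed against neither batch 2 nor batch 3 (adjusted p = 0.230 and 0.111). Grm3 in batch 6 did not pass against batch 2 (adjusted p = 0.0927). Grik5 passed against batch 2 in neither batch 4 nor batch 6 (adjusted p = 0.181 and 0.316). Given batch, the run was called for 1 of 11 (16.8% of all genes), Shank1, a scaffold gene that was 0.41 lower in run 2 than in run 1 (SE 0.083, adjusted p = 0.000425). Within batch 3 it was called for 4 of 11 (16.9% of all genes), namely Shank1, Cnih2, Grik5 and Dlg2.

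Pairs of the 6 genes were next compared over the 80 rats after rat batch, sex and column run had been fitted. Grin1 and Grin2a, for example, had an unadjusted Pearson r of -0.59, which became -0.30 with batch and sex fitted and -0.15 with the run as well (Spearman's rho -0.10, permutation p = 0.173 and 0.370). In all there were 15 pairs, 10 of them with a positive adjusted r, and 8 had the same sign in each of the 3 runs (22, 16 and 42 rats). Permutation p-values are from 100000 two-sided permutations, for which 1e-05 is the smallest possible value. The adjusted p-values beside them are from a limma regression of every other gene on the values of one gene. That regression called 22.9% of genes for Slc17a7, 26.2% for Camk2a, 29.2% for Grin1, 35.4% for Grin2a, 5.00% for Grin2b and 32.6% for Gria1, so a call by itself says little about a pair. Over the 30 tests of one of the 6 genes on another, 16 were called. The 30 tests are the 15 pairs taken in both directions, with the same partial r. Each called pair was called both ways, so its directions are not separate results.

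**Figure D3:**
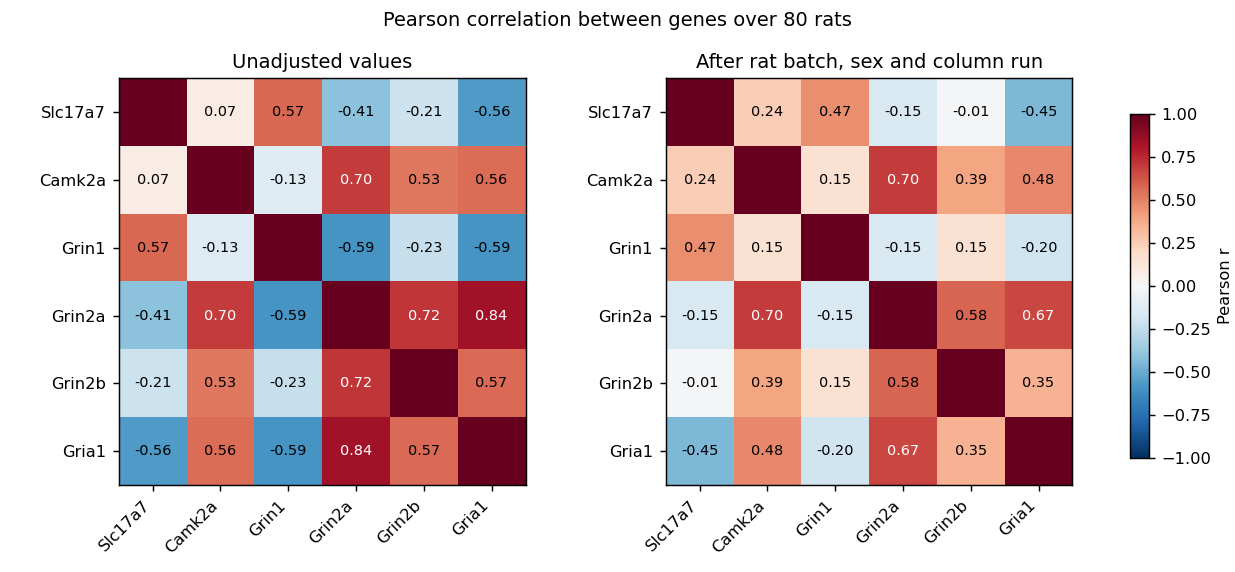
Pearson correlation between the genes over 80 rats, before (left) and after (right) rat batch, sex and column run were fitted. Colour and number give r from -1 (blue) to 1 (red). The block of Camk2a, Grin2a, Grin2b and Gria1 has positive values in both panels, and the negative values of Grin1 with Grin2a and Gria1 shrink from -0.59 to -0.15 and -0.20.

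Grin2a went with Camk2a, Gria1 and Grin2b. Its r with Camk2a was 0.70 (rho 0.56, both permutation p = 1e-05, adjusted p = 1.17e-10 in the regression on Camk2a). This was 0.60 and 0.59 without the 2 rats farthest from the median of Camk2a or of Grin2a, and 0.63 without male 38. It was 0.89 in run 1, 0.90 in run 2 and 0.37 in run 3, where the call was lost (adjusted p = 0.0943 and 0.0834 in the regressions on Camk2a and on Grin2a). Run 1 holds male 38, the lowest of all rats for Camk2a, Grin2a and Gria1. No r within run 1 was computed without that rat.

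With Gria1, Grin2a had an r of 0.67 (rho 0.56, both permutation p = 1e-05, adjusted p = 1.47e-09 in the regression on Grin2a), which was 0.59 and 0.54 without the 2 farthest rats, 0.58 without male 38 and 0.79, 0.61 and 0.57 in the 3 runs. Between Grin2a and Grin2b r was 0.58 (rho 0.60, both permutation p = 1e-05, adjusted p = 4.62e-07 and 4.07e-05 in the regressions on Grin2a and on Grin2b), with 0.66 and 0.53 without the 2 farthest rats, 0.68 without male 38 and 0.48, 0.83 and 0.71 by run. Seen from Grin2b, this r was at or above that of 99.9% of the expressed genes. Seen from Grin2a, 92.8% of genes were no higher with it than Grin2b was.

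**Figure D4:**
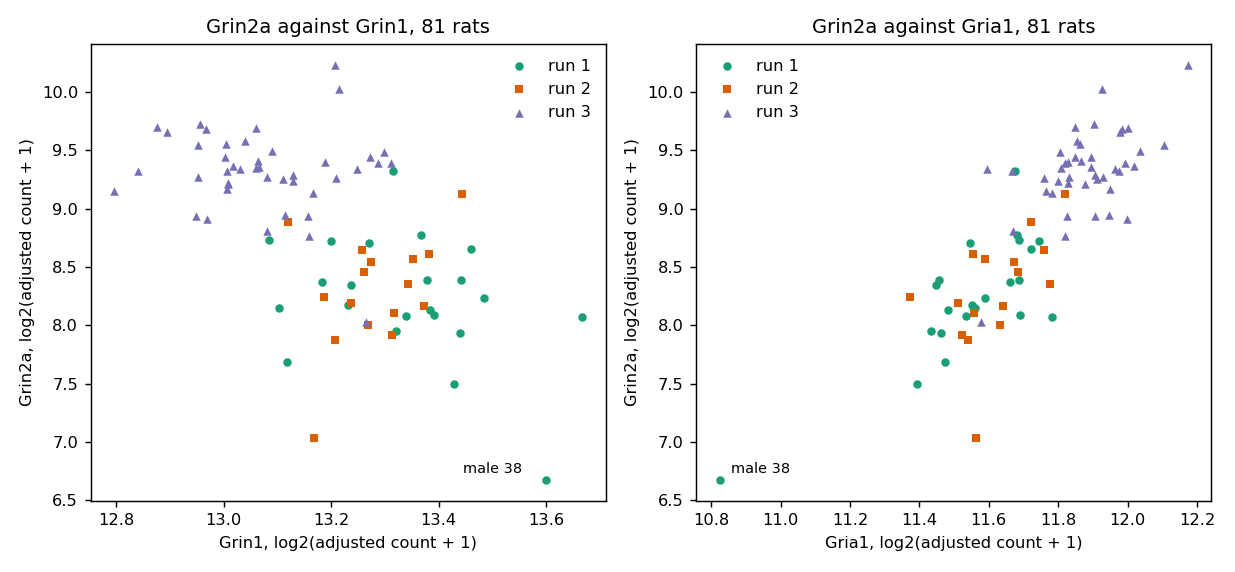
Grin2a against Grin1 (left) and against Gria1 (right) in 81 rats, all as log2 of the adjusted count plus 1, with 1 point per rat and the column run given by colour and shape. Values are unadjusted. On the left the rats of run 3 form a group at lower Grin1 and higher Grin2a, and on the right the points rise along 1 band, with male 38 at its lower end.

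Camk2a and Gria1 had an r of 0.48 (rho 0.30, permutation p = 4e-05 and 0.00649, adjusted p = 0.000131 in the regression on Camk2a). Without the 2 farthest rats it was 0.23 and no longer called (adjusted p = 0.161 and 0.174 in the 2 directions), so the call rests on those rats together. Without male 38 alone it was 0.30 and still called (adjusted p = 0.0498 and 0.0455). It was 0.78 in run 1, which holds male 38, and 0.13 in run 3. Camk2a and Grin2b had 0.39 (rho 0.43, permutation p = 0.00034 and 0.00011), and Grin2b and Gria1 had 0.35 (rho 0.45, permutation p = 0.00229 and 1e-04). Without male 38 both were 0.49. Both kept a positive sign in every run. Both lost the call in at least 1 direction after quantile normalization and without the 2 farthest rats. Many expressed genes had a higher partial r than these partners. Seen from Camk2a, Gria1 was at the 91.9 percentile and Grin2b at the 88.1. Seen from Gria1, Camk2a was at the 90.35 percentile and Grin2b at the 83.3. Seen from Grin2b, Camk2a was at the 96.9 percentile and Gria1 at the 95.1.

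Slc17a7 went with Grin1 and against Gria1. With Grin1 its r was 0.47 (rho 0.53, permutation p = 2e-05 and 1e-05, adjusted p = 0.000437 in the regression on Slc17a7). Without the 2 rats farthest from either median it was 0.62 and 0.61, and by run it was -0.05 in run 1, 0.38 in run 2 and 0.77 in run 3. The pair whose promoters are printed above was thus correlated in run 3 and not over all rats of run 1. Run 1 holds female 35, with the lowest Slc17a7 and the highest Grin1 of all 81 rats. The r of run 1 without that rat was not computed, and the difference between the runs was not tested. With Gria1, Slc17a7 had an r of -0.45 (rho -0.42, permutation p = 6e-05 and 0.00013, adjusted p = 0.000749 in the regression on Slc17a7). It was -0.56, -0.07 and -0.48 in the 3 runs. After quantile normalization this r was -0.24 and not called.

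The remaining pairs were not called in either direction over the 80 rats. Slc17a7 and Camk2a had 0.24 (rho 0.32, permutation p = 0.0305 and 0.00437), which became 0.38 and was called without male 38. By run it was -0.08, 0.55 and 0.51, and in run 3 it was called in both directions (adjusted p = 0.00495 and 0.0254). Camk2a and Grin1 had 0.15 (rho 0.21), which became 0.32 and was called without male 38. By run it was -0.36, 0.44 and 0.56, and in run 3 it too was called in both directions (adjusted p = 0.00733 and 0.00102). Run 1, where both of these pairs had a negative r, holds male 38. Besides Grin1 with Grin2a, given above, the others were Grin1 with Grin2b (0.15), Grin1 with Gria1 (-0.20), Slc17a7 with Grin2a (-0.15) and Slc17a7 with Grin2b (-0.01).

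The 11 matched synapse genes were set beside these pairs. The scaffold gene Dlg2 had a partial r of 0.84 with Grin2a, 0.80 with Gria1, 0.69 with Camk2a and 0.45 with Grin2b, all called (adjusted p = 3.65e-19, 1.04e-15, 3.62e-10 and 0.00361), and -0.30 with Slc17a7 (adjusted p = 0.0391). Grik5 had 0.81 with Grin1 (adjusted p = 3.27e-14) and 0.51 with Slc17a7 (adjusted p = 0.000109). Cacng3, an AMPA receptor auxiliary subunit gene, had 0.63 with Slc17a7 (adjusted p = 1.66e-07) and -0.57 with Gria1 (adjusted p = 1.31e-06). Cnih2 likewise had 0.51 with Slc17a7 and 0.53 with Grin1, but -0.44 with Grin2a and -0.36 with Gria1, and all 4 were called. Shank1 had 0.65 with Camk2a (adjusted p = 7.21e-09), and was also called with Grin1 (0.47), Grin2a (0.41) and Gria1 (0.31). Slc17a6, the vesicular transporter gene used mainly by subcortical neurons, had -0.37 with Slc17a7 (adjusted p = 0.00623) and -0.32 with Camk2a (adjusted p = 0.0194). Its partial r with Gria1 was positive, 0.29, and called (adjusted p = 0.0297).

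By count, 6 of 11 were called with Slc17a7 (4 positive, next to 22.9% of all genes), 4 with Camk2a (3 positive, 26.2%), 5 with Grin1 (all positive, 29.2%), 5 with Grin2a (3 positive, 35.4%), 1 with Grin2b (positive, 5.00%) and 6 with Gria1 (3 positive, 32.6%). Slc1a1, Grm6 and Grm8 were called with none of the 6 genes. Among the markers, Slc32a1 had 0.45 with Slc17a7 (adjusted p = 0.000752) and 0.44 with Grin1 (adjusted p = 0.000722). The other GABA marker, Vip, had -0.03 and -0.01 with them and was called with none of the 6 genes. Neurod6 had -0.36 with Grin1 (adjusted p = 0.00690), -0.31 with Gria1 (adjusted p = 0.0193) and 0.04 with Slc17a7. P2ry12 had -0.30 with Grin1 (adjusted p = 0.0338), and Aldh1l1 was called with none. The part of cell composition in these relations was not tested.

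**Figure D5:**
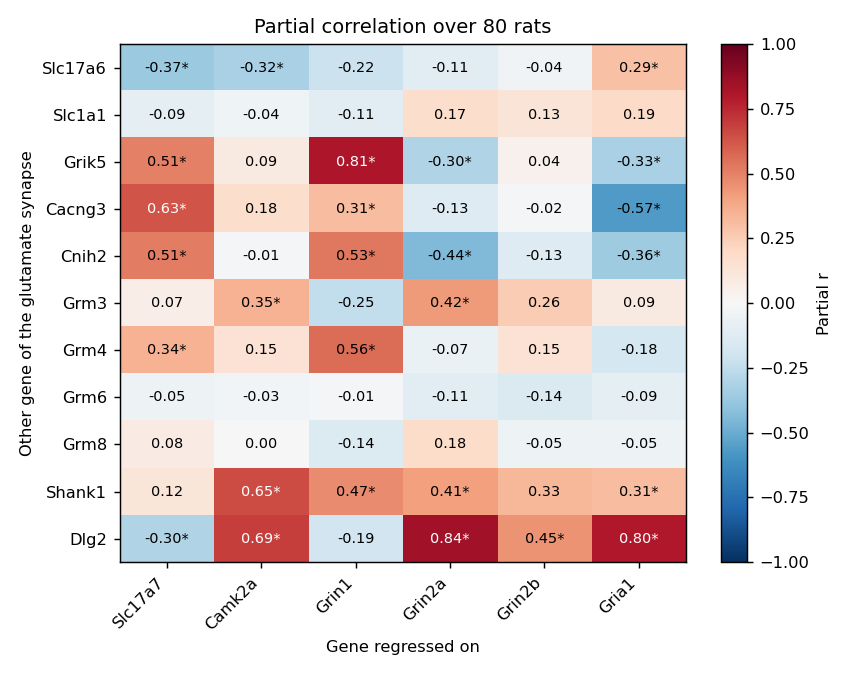
Partial correlation of 11 further genes of the glutamate synapse (rows) with the 6 genes (columns) over 80 rats after rat batch, sex and column run. Numbers and colour give partial r, and an asterisk marks an adjusted p under 0.05 over all genes. Dlg2 is strongly positive with Camk2a, Grin2a and Gria1, and Grik5, Cacng3 and Cnih2 are positive with Slc17a7 and Grin1 and negative with Gria1 and Grin2a.

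The genes most like each of the 6 were named by rule, as the highest and lowest partial r among 13047 expressed genes, and no symbol was at hand for them. For Grin2a the highest was ENSRNOG00000015692 (0.92) and the lowest ENSRNOG00000023650 (-0.75). For Grin1 they were ENSRNOG00000029450 (0.89) and ENSRNOG00000007829 (-0.75), and for Gria1 ENSRNOG00000004269 (0.88) and ENSRNOG00000006542 (-0.73). Camk2a was most like ENSRNOG00000011132 (0.84) and least like ENSRNOG00000059883 (-0.67), and Slc17a7 was most like ENSRNOG00000011282 (0.81) and least like ENSRNOG00000009836 (-0.67). Grin2b had the weakest extremes, ENSRNOG00000008479 (0.65) and ENSRNOG00000006681 (-0.51).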

How the data were processed

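RNA was extracted from the dissected IL of single rats, and each rat gave 1 polyadenylated RNA library. By the methods of the study and the submitters' processing notes, the authors trimmed reads with cutadapt, estimated a read count per gene with RSEM against the Ensembl rat transcriptome (build Rnor_6.0) and applied an upper-quartile adjustment with DESeq2. They removed libraries with few reads, a mismatched genotype or an outlying position, and genes with few reads. Versions are not given in the sources used here. The deposited values are log2 of the adjusted count plus 1, and no count model was used on them. RSEM splits a read that fits several genes between them by an estimate.

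The 6 genes, the lists and the column runs were chosen with earlier results of these data known. All 17252 genes entered linear models in limma 3.58.1 (R 4.3.3; lmFit, then eBayes with its intensity trend), and Benjamini-Hochberg adjustment over all of them was used with a threshold of 0.05. Sex was tested with rat batch as a covariate, batch with sex, and the column run with both. A difference on a scale with a pseudocount of 1 understates changes of low genes. Genes whose mean log2 value reached 5 were taken as expressed. For co-variation each gene was fitted on each of the 6 with batch, sex and run as covariates, and pairs of residuals were permuted 100000 times (numpy 2.4.6, Python 3.11.15). Permuting residuals ignores the degrees of freedom spent on the covariates. Each rat gave 1 library, so the p-values measure the spread between rats.

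Reads per library were estimated from the step between the low whole numbers that the adjusted counts take, and in 40 simulated libraries the step was within 1% of the true one in 100%. On simulated data without batch differences, 200 genes were shifted by 2 residual SDs between the sexes. The limma script recovered 100% of them and called 7 others. Shifts that large are easily found, so this checks the script and not its power for small sex differences. Groups (sex and rat batch) are those of the labels, and columns were matched by title, with 0 columns left over. Symbols of the 6 genes were given with their identifiers. The reference table (GRCr8) holds no Ensembl identifier for them, so 0 of 6 could be checked by identifier. Symbols of 16 further genes came from pairs of identifier and name in the study's own lists. A promoter entry existed for 3 of 6 genes, of which 2 are shown. Genes were named by rule: the 6 genes, the most and least correlated gene of each, and listed genes with the smallest p-values; a few more list members and markers are named for completeness of a count. The alternatives tried were an expression filter, another pseudocount, no trend, robust moderation, median centring, quantile normalization, other covariates, single runs, leaving out each batch, the shallowest library or the 2 farthest rats, and, chosen after seeing the data, leaving out male 38.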

Additional observations from a re-analysis of the deposited data

Results flagged for a closer look

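In 24 small groups (6 genes in 4 groups of 4, 7, 7 and 8 rats), the lowest and the highest rat were compared with the rest of their group by Dixon's ratio, the gap to the nearest rat as a share of the range. It exceeded the 95% critical value in 2 groups, where chance gives about 1 in 20. Among the 4 females of batch 2, female 1 had a Slc17a7 value of 15.20, whereas the lowest of the 4 had 14.96 (ratio 0.859). This rat was in run 2 and the other 3 were in run 1, and over all rats Slc17a7 averaged 15.15 in run 2 and 15.07 in run 1. Among the 7 rats of batch 3 in run 1, female 35 had a Slc17a7 value of 14.80 against 15.07 in the next rat (ratio 0.673), and this rat also had the highest Grin1 of all 81. The cause of neither was tested.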

How the results depend on the processing

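No paired analysis was possible because every library is of a different rat and the numbers link no rats. The calls of Grin2a and Grin1 for the column run, and the absence of calls among the 6 genes for sex, were kept under each alternative that could be fitted. The run test without batch 3 could not be fitted, because no other batch spans run 3 and another run. Every alternative for the run therefore kept the 3 rats of batch 3 in run 3, on which the run 3 differences rest. The number of genes called for sex was 18, 19 and 20 without batches 3, 4 and 6 against 34 with all, with fewer rats in each. The sex difference changed sign, uncalled, for Camk2a (-0.00885) and Grin2a (-0.139) without batch 3, and for Grin2a with the run as a covariate (-0.0233) or no covariate (-0.13). Genes called for batch in the F test over batches 2, 3, 4 and 6 fell from 9945 to 476 given the run, with 0 of the 6 genes. Within run 3, 597 genes were called between batches 4 and 6, and within run 1, 0 between batches 2 and 3. Of the 6 genes, 0 were called in each. These 2 counts are for single pairs of batches and cannot be set against 9945. Over all runs, batch 6 minus batch 4 alone called 609 genes, and batch 3 minus batch 2 called fewer than that. Given the run, the mean of batches 4 and 6 minus that of 2 and 3 changed sign for Grin1 (0.0917) and Grin2a (-0.0828). Quantile normalization reversed Slc17a7 for batch (0.0106) and for run (0.0881). The cause was not tested.

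Of the 30 tests of one of the 6 genes on another, which take each pair in both directions, 16 were called. There were 6 in run 1 alone and 3 in run 2 alone, which hold fewer rats. Quantile normalization gave 12, and leaving out male 38 gave 20. The number of all genes called also moved under some alternatives. These counts therefore do not tell a change of the 6 genes from one of all genes. Partial r changed sign for Slc17a7 with Grin2b (0.0399 with median centring, 0.00790 without the shallowest library, 0.0447 without the 2 rats farthest from the median of Grin2b, 0.40 in run 2), for Camk2a with Grin1 (-0.13 unadjusted, -0.36 in run 1) and for Grin1 with Grin2b (-0.23 unadjusted). In run 1 it also did so for Slc17a7 with Grin1 (-0.0506) and with Camk2a (-0.0799), and in run 2 for Grin2a with Slc17a7 (0.39) and with Grin1 (0.48), and for Grin1 with Gria1 (0.33). As a scaled median absolute deviation, the spread after batch and sex was 0.0727 for Slc17a7, 0.385 for Grin2a and 0.123 for Gria1, below the SDs given above. Depth limits Grin2a most, with 86.96 reads in the lowest library.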
